A study of Mus musculus with 4 samples.

Results

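Slc18a1, Mustn1, Enpp5, Esyt3 and Phospho1 are 5 of the 23390 gene models counted in mouse osteoclast cultures. They were chosen because their counts were many times lower with the p38α inhibitor BMS-582949 than in the control cultures, and because none is on the classic lists of osteoclast genes. That choice used the comparison itself, so their levels and fold changes are given as descriptions, without a test. All 5 are protein-coding, matched 1 Ensembl identifier each and passed the filter on low counts, which left 13214 genes. Their rank among those genes is set by the choice.

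Osteoclasts are the multinucleated cells that resorb bone. They form from macrophages under M-CSF and the cytokine RANKL, and they dissolve mineral by pumping protons through the V-ATPase onto the bone surface. The 5 genes come from unrelated families. Slc18a1 encodes VMAT1, a proton-driven antiporter that loads monoamines into secretory vesicles and is known mainly from neuroendocrine cells. Mustn1 encodes a small nuclear protein of developing and regenerating muscle and skeleton. Enpp5 encodes a membrane-anchored member of the nucleotide pyrophosphatase/phosphodiesterase (NPP) family. Esyt3 encodes an extended synaptotagmin, a protein that ties the endoplasmic reticulum to the plasma membrane and moves lipids between them. Phospho1 encodes a phosphatase for phosphocholine and phosphoethanolamine, known from cartilage and bone-forming cells, where it helps to start mineral deposition.

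All cultures came from bone marrow of wild-type C57BL/6J mice, grown for 3 days with supernatant of L929 fibroblasts as the source of M-CSF (equivalent to 20 ng/ml). Macrophages from these cultures were plated again overnight and then exposed to 40 ng/ml RANKL with either DMSO, the solvent (2 libraries), or 10 µM BMS-582949 (2 libraries), until RNA was taken at day 4. Sources differ on the exposure, given as 3 days in the design text and 4 days in the treatment protocol, which names the compound for every sample. Groups were therefore taken from the treatment label, since the titles of the treated samples also spell the compound differently. Ages and numbers of animals are not stated, and nothing says that replicate libraries stem from different animals or cultures. All p-values here therefore measure the spread between these libraries alone, which may be technical.

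Total counts ranged from 35331889 to 36178333 in DMSO and from 37455168 to 39255925 with BMS-582949. A gene was called changed at a Benjamini-Hochberg adjusted p under 0.05 in edgeR's quasi-likelihood test. This held for 60.2% of the 13214 genes, 29.7% lower and 30.5% higher with the compound (3919 and 4035 genes). With scaling by library size alone the split was 2240 lower and 6738 higher, and the median over all genes rose from 0.03 to 0.41 on the log2 scale. All 10 osteoclast markers were present and all were called lower, from Acp5 at 10.8% of its DMSO level to Nfatc1 at 35.9%. These are whole cultures, in which fewer osteoclasts and less RNA per osteoclast cannot be told apart.

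Levels are given in CPM, the counts per 1e6 counts of a library scaled by TMM, which corrects for a few abundant genes taking a large share of a library. Slc18a1 (ENSMUSG00000036330, chromosome 8, 69037711 to 69089235 on GRCm38, minus strand) read 108 and 109 CPM in the DMSO libraries and 8.71 and 7.94 CPM with BMS-582949. These values rest on 3360 and 3449 counts in DMSO and 394 and 336 with the compound. The groups lay far apart, and the libraries of each group close together. Group means were 109 ± 0.858 CPM in DMSO and 8.33 ± 0.544 CPM with the compound (SD, n = 2 each, as for all means below). The log2 fold change was -3.71 ± 0.08 (SE), so that 7.66% of the DMSO level was left. SEs of fold changes, here and below, were derived from edgeR's test statistic, whose variance estimate is partly shared across genes.

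Mustn1 (ENSMUSG00000042485, chromosome 14, 30879200 to 30881610, plus strand) read 26.9 and 23.7 CPM in DMSO against 1.53 and 1.75 CPM with the compound. The higher of the latter came from 74 counts. Its log2 fold change was -3.95 ± 0.15 (SE), with 6.47% of the DMSO level left. Enpp5 (ENSMUSG00000023960, chromosome 17, 44078813 to 44086567, plus strand) read 22.6 and 21.5 CPM in DMSO against 1.68 and 1.18 CPM. Its log2 fold change was -3.94 ± 0.18 (SE), leaving 6.49%. With the compound its libraries held 76 and 50 counts, or 1.94 (exact Clopper-Pearson 95% interval 1.53 to 2.42) and 1.33 (0.991 to 1.76) CPM of the unscaled library total. These intervals, which cover counting error only, overlap.

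Esyt3 (ENSMUSG00000037681, chromosome 9, 99309963 to 99358557, minus strand) read 19.3 and 18.8 CPM in DMSO and 1.17 and 1.51 CPM with BMS-582949, from 53 and 64 counts. Its log2 fold change was -3.83 ± 0.17 (SE), with 7.05% of the DMSO level left. In each of these 4 genes the lower DMSO library was at least 12.4 times the higher BMS-582949 library. Their DMSO replicates differed by at most 1.14-fold.

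Phospho1 (ENSMUSG00000050860, chromosome 11, 95824499 to 95832140, plus strand) had the largest fold change and the widest spread. It read 82.5 and 64.0 CPM in DMSO and 3.47 and 1.91 CPM with the compound, from 2565, 2018, 157 and 81 counts. Its log2 fold change was -4.76 ± 0.21 (SE), leaving 3.68%. That SE draws on other genes and understates the spread of Phospho1's own libraries. The log2 difference between 1 library of each group had an SD of 0.66. Replicates differed by 1.29-fold in DMSO and 1.81-fold with the compound. In both groups this was more than counting error, since the 95% intervals of replicates did not overlap (69.8 to 75.5 and 53.4 to 58.3 unscaled CPM in DMSO, 3.40 to 4.68 and 1.72 to 2.69 with BMS-582949). The lower DMSO library was still 18.4 times the higher BMS-582949 library.

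**Figure D1:**
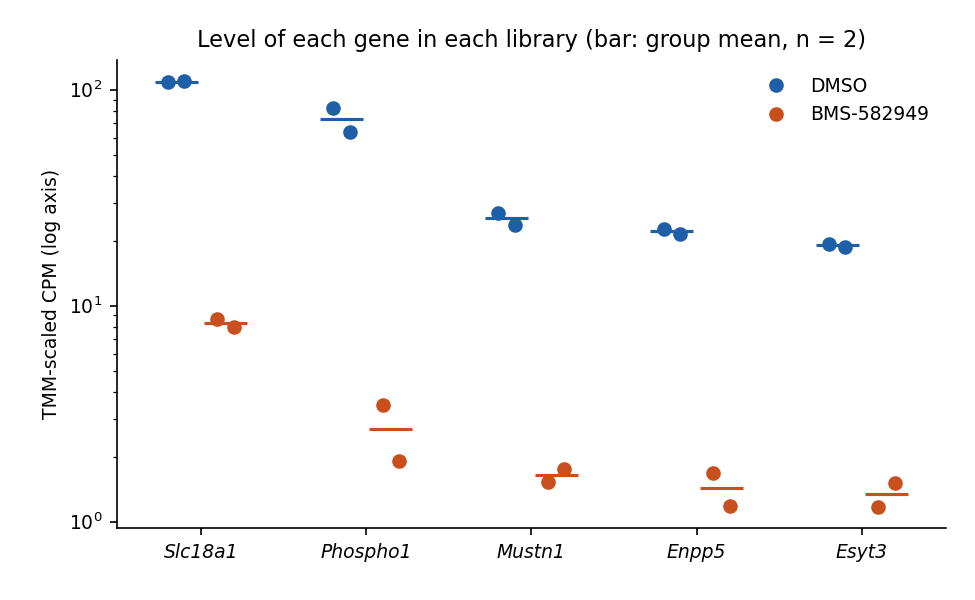
TMM-scaled CPM (log axis) of the 5 genes, with 1 point per library (blue, DMSO; orange, BMS-582949) and a bar at the mean of 2. In every gene both DMSO points lie above both BMS-582949 points, with the widest spread in Phospho1 (3.47 and 1.91 CPM with the compound).

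The groups did not overlap for any of the 5 genes, with DMSO above in each. This held for 38.7% of all tested genes, and the opposite for 41.4%, and for these 5 the choice fixes it. Together they took 8067 and 7484 counts in DMSO and 749 and 605 with the compound. Of the 8214 tested genes with at least 10 CPM in DMSO, 14 had a lower log2 fold change than Slc18a1 and 7 a lower one than Mustn1. The first count includes each of the other chosen genes, and the second includes Phospho1. Below Phospho1 lay 1 gene, Corin (-4.84), which encodes a membrane-bound serine protease and is named here after its value was seen. The 10 osteoclast markers kept a median of 12.7% of their DMSO level, against 3.68% to 7.66% for the 5 genes. Those 5 were chosen for their large falls, so this difference reflects the choice.

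**Figure D2:**
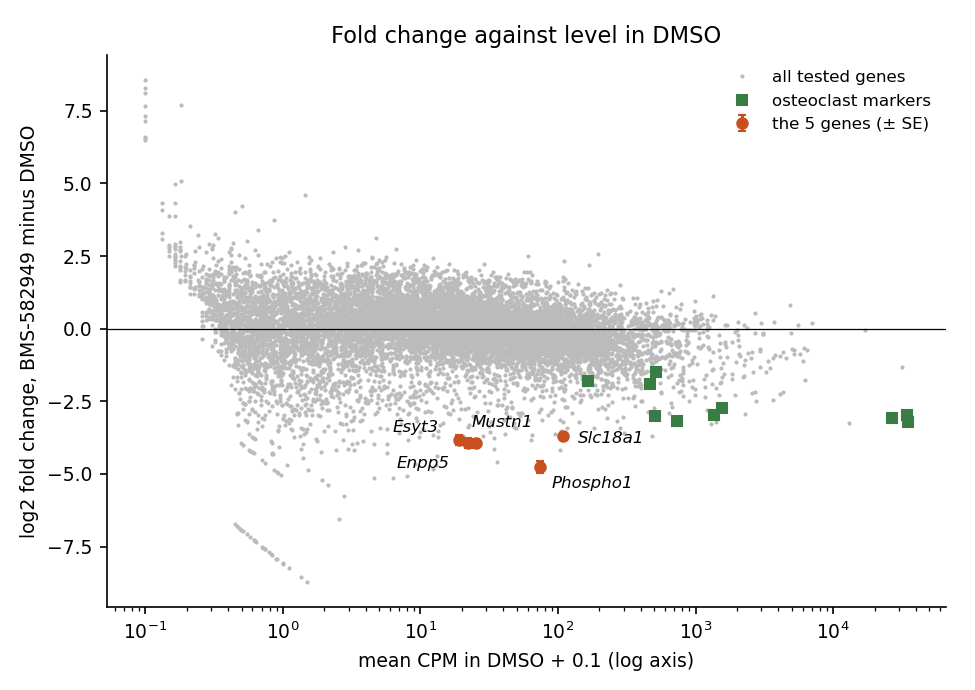
Log2 fold change (BMS-582949 minus DMSO) against mean CPM in DMSO plus 0.1 (log axis) for all 13214 tested genes (grey), the 10 osteoclast markers (green squares) and the 5 genes (orange, ± SE). The 5 genes, chosen for their large falls, lie between -3.71 and -4.76 at 19.0 to 109 CPM. The osteoclast markers lie at higher levels and between -1.48 and -3.21.

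Levels of different genes were compared per kilobase of annotated exon. In DMSO, Phospho1 was highest at 40.7 and 31.5 CPM per kb. Slc18a1 (20.0 and 20.2) and Mustn1 (21.8 and 19.2) followed and did not differ beyond their spread, then came Enpp5 (4.66 and 4.42) and Esyt3 (2.71 and 2.63). With BMS-582949, Slc18a1 (1.61 and 1.47 CPM per kb), Mustn1 (1.23 and 1.41) and Phospho1 (1.71 and 0.943) were within the spread of Phospho1. Enpp5 (0.346 and 0.243) and Esyt3 (0.164 and 0.212) stayed lowest. By CPM alone, 86.7% of tested genes lay below Slc18a1 in DMSO and 33.1% with the compound. For Esyt3 these shares were 50.6% and 15.5%.

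Exons of Slc18a1, Mustn1 and Enpp5 overlap no other model in GENCODE M21. Those of Esyt3 overlap an opposite-strand model, Gm37249, over 6.85% of their length. Phospho1 is different, with 89.6% of its 2029 exon bases inside exons of other genes. A transcript of the zinc finger gene Zfp652 on the same strand, annotated as subject to nonsense-mediated decay, covers 1818 of them. The last exon of Abi3, on the opposite strand, covers 1708, and 211 bases are its own. In RefSeq Zfp652 ends at 95764715, well before Phospho1 starts, and Abi3 (95830072 to 95842476) still overlaps it. How reads in shared bases were counted is not given in the sources used here, so the size of the Phospho1 values is uncertain. Zfp652 read 116 and 159 CPM in DMSO and kept 28.0% of its level, and Abi3 kept 44.5%, against 3.68% for Phospho1. Between the DMSO libraries Phospho1 was lower in replicate 2, Zfp652 was higher there, and Abi3 read 90.8 and 89.8 CPM. What shared reads contributed to the Phospho1 counts was not tested.

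Promoter windows of 300 bases (250 before to 50 after the start, RefSeq, GRCm38.p6) were found for 3 of the 5 genes, Mustn1, Esyt3 and Phospho1. They are shown because all 3 genes were far lower with the compound, while their upstream sequences differ widely in base composition. The part of each window before the first annotated exon base is printed, 5′ to 3′ on the gene's strand. Capitals mark matches to 8 motifs searched on both strands, namely AP-1 (TGANTCA), CRE (TGACGTCA), NFAT (TGGAAA), PU.1 (GAGGAAG), E-box (CACGTG), M-box (TCATGTG), NF-kB and MEF2. The printed parts are chr14:30879007-30879199 (plus strand, 193 bases), chr9:99358558-99358780 (minus strand, 223 bases) and chr11:95824250-95824498 (plus strand, 249 bases). RefSeq places Esyt3 at 99309963 to 99360159, so its window lies inside that span and not at its outer end.
Mustn1: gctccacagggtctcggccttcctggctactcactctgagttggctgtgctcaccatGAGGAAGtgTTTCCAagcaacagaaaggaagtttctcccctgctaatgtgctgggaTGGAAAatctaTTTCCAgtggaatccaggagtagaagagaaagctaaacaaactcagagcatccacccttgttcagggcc
Esyt3: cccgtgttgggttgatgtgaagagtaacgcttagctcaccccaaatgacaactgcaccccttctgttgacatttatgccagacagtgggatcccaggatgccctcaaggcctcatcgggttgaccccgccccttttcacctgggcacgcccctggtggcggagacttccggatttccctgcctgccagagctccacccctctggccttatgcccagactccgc
Phospho1: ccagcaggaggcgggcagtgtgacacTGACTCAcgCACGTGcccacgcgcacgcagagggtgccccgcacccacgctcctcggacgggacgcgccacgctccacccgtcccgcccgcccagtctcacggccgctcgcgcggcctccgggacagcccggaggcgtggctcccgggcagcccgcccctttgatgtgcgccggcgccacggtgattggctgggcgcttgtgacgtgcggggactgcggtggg

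Matches and base composition were taken over the whole 300-base windows, and all matches lie in the printed parts. The Mustn1 window held 1 PU.1 match and 3 NFAT matches, 2 of them on the other strand. The Phospho1 window held 1 AP-1 and 1 E-box match, and the Esyt3 window held none of the 8 motifs. None of the printed matches overlap each other. Among 32851 windows of 300 bases, 13.6% hold the PU.1 letters, 21.4% the NFAT letters, 7.81% the AP-1 letters and 7.15% the E-box letters. The Phospho1 window was 77.0% G and C with 42 CpG pairs, Esyt3 61.7% with 14 and Mustn1 52.7% with 1, against medians of 52.7% and 7 over all windows. Matches are descriptions and show no binding.

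The genes on either side of each of the 5 were not chosen on their values, and were tested. Of the 20 neighbours (the 2 nearest counted genes on each side), 15 had enough counts. Of these, 8 were called lower and 5 higher, against 29.7% and 30.5% of all tested genes, with a median log2 fold change of -0.79 (0.03 for all). Without models that share at least 10% of their exon bases with another, 5 were lower. Without DMSO replicate 2, 3 were higher. The first of these alternatives was chosen after seeing the data.

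Slc18a1 lies head to head with Atp6v1b2, which encodes the B2 subunit of the V-ATPase. Their spans overlap by 590 bases on opposite strands without sharing exon bases. Atp6v1b2 fell from 4338 ± 223 to 956 ± 47.0 CPM (log2 fold change -2.18, adjusted p = 3.9e-10), and was lower in both treated libraries than in either control. On the other side Lpl, which encodes lipoprotein lipase, rose from 787 ± 14.9 to 1405 ± 125 CPM (adjusted p = 9.6e-07). Ints10, of the Integrator complex, rose by 0.37 on the log2 scale (not called without DMSO replicate 1). Lzts1 was near the count limit and not called.

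Upstream of Mustn1, Tmem110 ends 1990 bases away and encodes a membrane protein of the endoplasmic reticulum that acts with STIM1. It rose from 8.70 ± 0.743 to 14.1 ± 1.29 CPM (adjusted p = 7.7e-04), the opposite direction to Mustn1. Sfmbt1, a Polycomb-associated gene, was at -0.27 (adjusted p = 0.032), a call that 6 alternatives ended, with adjusted p from 0.051 to 0.35, and that turned to 0.11 with library size only. On the other side Itih4 and Itih3 held 8 and 0 counts over all 4 libraries.

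Around Enpp5 the pattern was mixed. Rcan2, a regulator of calcineurin, fell from 5.78 ± 0.119 to 0.842 ± 0.154 CPM (log2 fold change -2.77, adjusted p = 2.0e-06), and Clic5, of the chloride intracellular channel family, from 6.88 ± 0.276 to 1.03 ± 0.210 CPM (-2.73, adjusted p = 1.1e-06). Enpp4, the closest gene and of the same family, lies between Enpp5 and Clic5 on the other strand. It was called higher, from 2.72 ± 0.435 to 4.30 ± 0.267 CPM (adjusted p = 0.028). That call ended without DMSO replicate 2 (adjusted p = 0.15), without BMS-582949 replicate 2 (0.098) and in DESeq2 (0.12). Cyp39a1, an oxysterol hydroxylase gene, was higher from 22 counts in DMSO (not called without DMSO replicate 2).

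Next to Esyt3, the Ras-related GTPase gene Mras fell from 57.8 ± 4.81 to 12.9 ± 1.22 CPM (log2 fold change -2.16, adjusted p = 6.8e-09). Cep70, a centrosomal gene 9559 bases away on the other strand, read 13.1 ± 1.09 and 12.3 ± 2.18 CPM and was not called. Around Phospho1 all 3 tested neighbours fell, Zfp652 by 1.83, Abi3 by 1.17 and the G protein gamma gene Gngt2 by 1.63 on the log2 scale. These 3 share exon bases with other models over 20.0%, 75.8% and 12.5% of their length. For Zfp652 and Abi3 those models include Phospho1 itself, so their counts may not be independent of it.

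**Figure D3:**
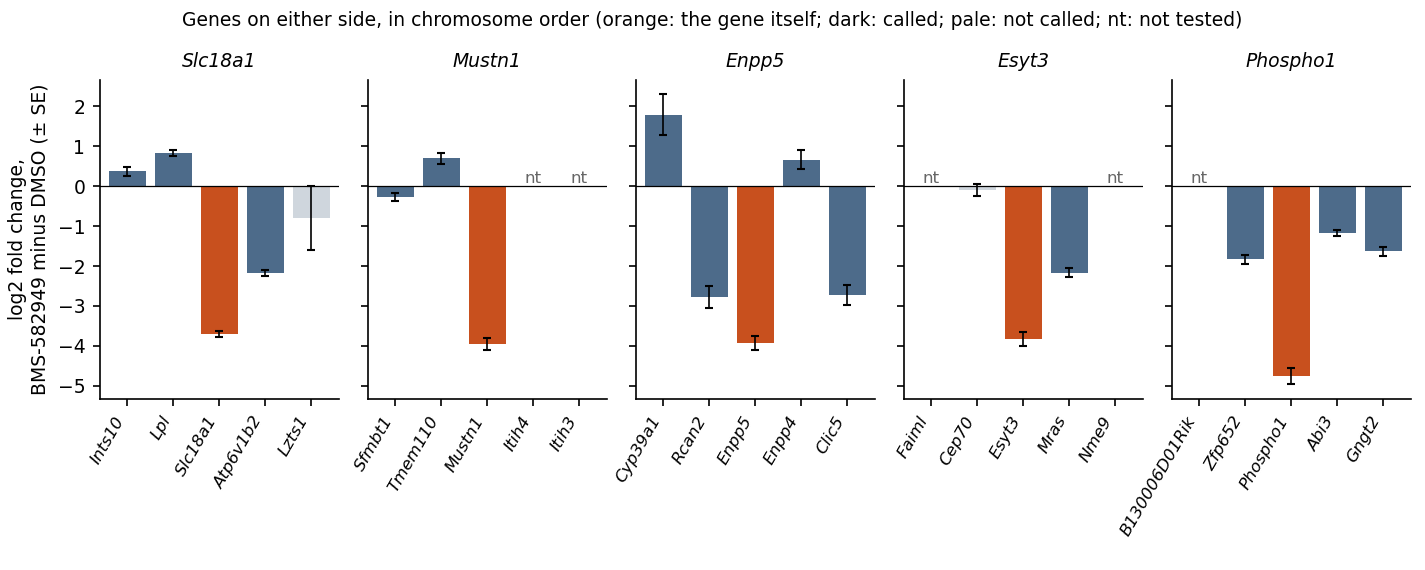
Log2 fold change (BMS-582949 minus DMSO, ± SE) of each of the 5 genes (orange) and the 2 counted genes on each side, in chromosome order and not to distance (dark, called; pale, not called; nt, too few counts). All 3 tested neighbours of Phospho1 were called lower, and these share exons with other models (Zfp652 and Abi3 also with Phospho1 itself).

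Listed as relatives or pathway partners of Slc18a1, Enpp5, Esyt3 and Phospho1 were 98 genes, all among the gene models counted, and 77 were tested. Of these, 34 were called lower and 19 higher, against 29.7% and 30.5% in the background, and the median log2 fold change was -0.19. With library size only, 22 were lower and 31 higher.

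Amine handling around Slc18a1 was mostly below detection. Of 17 listed genes 5 were tested, with 1 called lower (against 29.7% of all tested genes), 4 not called, and a median of 0.01. With library size only, 2 were called higher. The other vesicular transporters were Slc18a2 (VMAT2), at 1.45 ± 0.399 and 1.56 ± 0.606 CPM (not called), and Slc18b1, a polyamine transporter gene, which read 12.3 and 13.7 CPM in DMSO and fell to 6.23 and 5.29 CPM (log2 fold change -1.17, adjusted p = 2.6e-05). Slc18a3, the acetylcholine transporter gene, had no count in any library, as did Th, Dbh, Tph1 and Tph2, whose enzymes make catecholamines and serotonin. A count of 0 allows up to 3 counts, or 0.0764 to 0.0849 unscaled CPM in these libraries. Ddc held 4 counts in all and Hdc 19. Maoa, which encodes the amine-degrading enzyme monoamine oxidase A, read 15.8 ± 0.348 and 15.9 ± 0.687 CPM and was not called. Per kilobase, Slc18a1 made up 83.0% and 82.1% of the summed level of its 4-gene family in DMSO and 43.1% and 42.3% with the compound.

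Of 20 genes of the NPP family and of nucleotide and nucleoside handling, inside or outside the cell, 18 were tested. Among them 6 were called lower and 5 higher (median -0.10), beside 29.7% and 30.5% of all tested genes. With library size only 8 were higher, and with at least 1 CPM required 3 were lower. Enpp1, which makes the mineral inhibitor pyrophosphate, read 4.92 ± 0.278 and 6.07 ± 0.457 CPM (not called, adjusted p = 0.17, and called higher with library size only). Enpp2, the autotaxin gene, read 1.12 ± 0.0333 and 0.542 ± 0.203 CPM (not called). Enpp3 was called lower on 38 counts in DMSO and 2 with the compound, a ratio of 3.77% (95% counting interval 0.440% to 14.6%). Enpp6 and Enpp7 had 6 and 0 counts. Per kilobase, Enpp5 held 76.3% and 77.4% of the summed level of these 7 genes in DMSO, and 17.6% and 12.7% with BMS-582949, where Enpp4 (0.943 CPM per kb) and Enpp1 (0.591) stood above Enpp5 (0.295).

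Of the nucleoside genes, Ada (adenosine deaminase) fell from 27.9 ± 3.20 to 8.70 ± 0.236 CPM, and Slc29a1 (a nucleoside transporter) from 259 ± 13.9 to 165 ± 10.8 CPM. The adenosine kinase gene Adk rose from 15.9 ± 0.599 to 42.2 ± 1.79 CPM and the ATP-gated channel gene P2rx7 from 21.1 ± 2.08 to 44.4 ± 0.0235 CPM. Their adjusted p were 1.7e-07, 4.0e-06, 2.3e-07 and 2.8e-06. Entpd4, a Golgi nucleotidase gene, was at -0.35 (adjusted p = 0.016) and at 0.03 with library size only. Its call ended when DMSO replicate 2 or BMS-582949 replicate 1 was left out. Its exons overlap another model over 30.4% of their length.

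Esyt3 was the least abundant of the 3 extended synaptotagmins. Esyt1 rose from 78.2 ± 10.5 to 123 ± 0.285 CPM (log2 fold change 0.65, adjusted p = 2.3e-05). Esyt2 read 59.0 and 61.0 CPM in DMSO and 52.8 and 51.0 CPM with the compound, a change of -0.21 (adjusted p = 0.025) that became 0.17 with library size only. Leaving out replicate 2 of either group ended that call. Per kilobase Esyt3 made up 14.3% and 12.5% of the family in DMSO and 0.719% and 0.932% with the compound, while the family's sum went from 18.9 and 21.1 to 22.8 and 22.7 CPM per kb. Of 21 tested genes of endoplasmic reticulum contact sites, 9 were called lower and 6 higher, beside 29.7% and 30.5% of all tested genes. Their median was -0.15. With library size only, 1 was lower and 10 higher. Mfn2, which encodes the tether mitofusin 2, fell from 140 ± 7.82 to 64.8 ± 0.694 CPM (adjusted p = 2.2e-08), and the calcium sensor gene Stim2 rose from 16.9 ± 2.48 to 39.3 ± 1.45 CPM (adjusted p = 2.8e-06). Pitpnm2 (-0.81) and Mospd2 (-0.55) were called lower, except with library size only.

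Around Phospho1, 8 of 20 tested genes of phosphocholine and phosphoethanolamine metabolism were called lower and 6 higher. Of all tested genes, 29.7% were lower and 30.5% higher, and the list's median was -0.21. The paralog of Phospho1, Phospho2, read 17.7 and 20.3 CPM in DMSO and 12.7 and 13.4 CPM with the compound. That change of -0.55 on the log2 scale was called (adjusted p = 1.6e-03), except with library size only (0.23). Smpd1, the acid sphingomyelinase gene, fell from 269 ± 8.82 to 65.4 ± 2.23 CPM, Chpt1, for the last step of phosphatidylcholine synthesis, from 75.1 ± 1.67 to 25.6 ± 0.569 CPM, and the glycerophosphodiesterase gene Gpcpd1 from 50.0 ± 4.23 to 25.0 ± 1.89 CPM. The phospholipase gene Pla2g4a rose by 1.12, the choline transporter-like gene Slc44a2 by 0.50 and Smpd4 by 0.45 on the log2 scale. All 6 of these calls had adjusted p from 1.4e-10 to 2.4e-03.

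Mineralisation and phosphate genes had 10 called lower and 2 higher of 15 tested, beside 29.7% and 30.5% of all tested genes. Their median was -1.37 against 0.03 for all genes. Higher calls were 4 with library size only and 1 without models that share exons. This list was chosen with earlier results of these data known, and Car2 and Spp1 on it are also osteoclast genes. Alpl, the tissue-nonspecific alkaline phosphatase that works beside Phospho1 in mineralising vesicles, fell from 14.3 ± 1.51 to 3.45 ± 0.163 CPM (log2 fold change -2.05, adjusted p = 2.4e-07). Mgp, an inhibitor of calcification, fell from 43.2 ± 7.59 to 9.68 ± 0.182 CPM, and Ibsp, the bone sialoprotein gene, from 5.63 ± 2.81 to 0.285 ± 0.0350 CPM. The members that rose were the phosphate importer gene Slc20a1, from 47.6 ± 3.29 to 84.0 ± 0.746 CPM, and the annexin gene Anxa6, from 87.0 ± 4.24 to 131 ± 8.65 CPM. Exons of Slc20a1 overlap another model over 13.1% of their length.

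**Figure D4:**
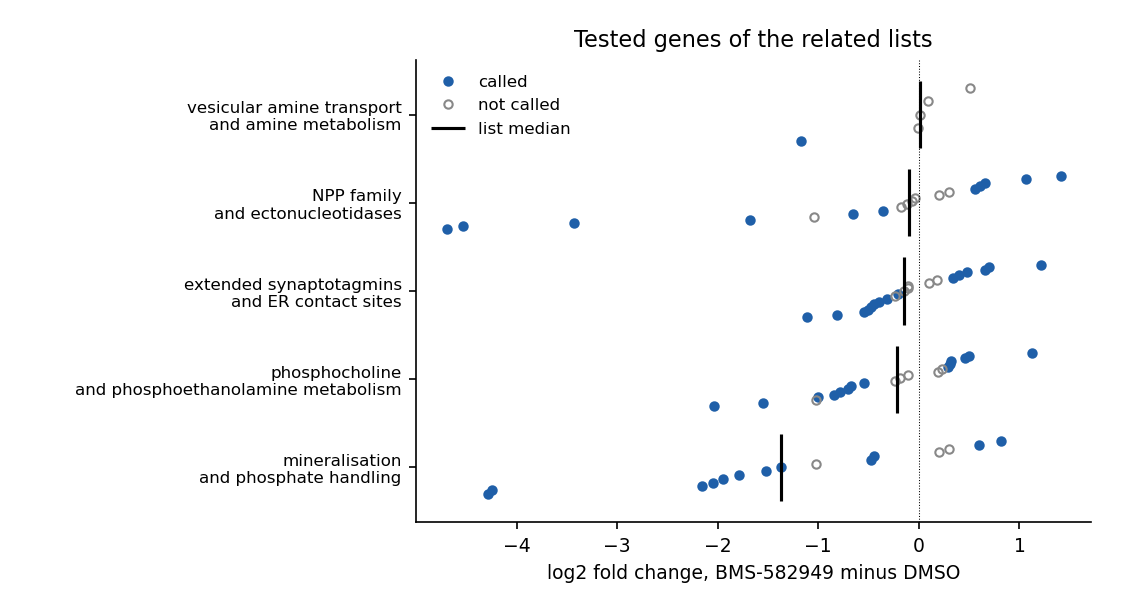
Log2 fold change (BMS-582949 minus DMSO) of each tested gene on the 5 lists of relatives and partners (filled, called; open, not called), with a bar at the list median. Mineralisation and phosphate genes have a median of -1.37, and the other 4 lists have medians from -0.21 to 0.01.

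Because the 5 genes are known from other tissues, markers of those cell types were read beside them. Beside the calls here and in the next paragraph stand 29.7% lower and 30.5% higher of all tested genes. Neuroendocrine markers summed to 0.507 to 0.676 CPM in DMSO and 1.28 to 1.49 with the compound, with no count for Chga, Scg2, Pnmt, Dbh and Th. Of the 2 tested, Chgb and Syp, 0 were called by edgeR, DESeq2 or limma-voom and 0 had an unadjusted p under 0.05, and Chgb, on 47 counts in all, was called higher without DMSO replicate 1 (adjusted p = 0.034). Erythroid markers summed to at most 2.81 CPM in any library, with 0 of 5 tested called and 0 at an unadjusted p under 0.05 by the same 3 tools. Mast cell markers summed to at most 1.32 CPM, and the call of Kit as lower, the 1 gene tested, ended in 7 alternatives. Of the skeletal muscle markers, 6 of 10 had no count, among them Myod1, Myog and Myh4. The sum was 7.35 to 8.33 CPM in DMSO and 2.17 to 2.76 CPM with the compound, and 3 of 4 tested genes were called lower, including Ckm (15.5% of its exon bases shared with another model) and Des, whose call ended whichever library was left out.

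Osteoblast markers summed to 333 to 358 CPM in DMSO, mostly Col1a1 (315 ± 13.4 CPM), and to 224 to 227 with the compound, with 5 of 6 tested called lower and no count for Bglap and Sost. Chondrocyte markers summed to 45.9 to 61.8 and 22.1 to 29.9 CPM, mostly Col2a1, which fell from 52.4 ± 11.5 to 25.4 ± 5.09 CPM. The other chondrocyte call, Sox9, rested on 80 counts in all and ended whichever library was left out. Fibroblast markers summed to 357 to 395 and 253 to 257 CPM, with 3 of 6 lower (1 with library size only) and 1 higher. The higher call among fibroblast markers (Thy1) ended without DMSO replicate 2 or BMS-582949 replicate 1, and that of the osteoblast marker Runx2 without DMSO replicate 1. Both also ended in DESeq2. Alpl, Ibsp and Dmp1 are on both the osteoblast and the mineralisation list. Of the macrophage markers 5 of 8 rose and 2 fell, 1 of which, Csf1r, shares 15.1% of its exon bases with another model. The part of these cell types in the values of Mustn1, Phospho1 and the mineralisation genes was not tested.

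By level and profile together (root mean square difference in log2(CPM + 0.1) over the 4 libraries, among 12609 tested genes with a symbol), Tm4sf19 was nearest to Slc18a1 at 0.20. This gene of a tetraspan family read 91.4 and 117 CPM in DMSO and 10.6 and 7.35 CPM with the compound. The histone gene Hist2h2be followed at 0.30. Dgki, a diacylglycerol kinase gene, was nearest to both Enpp5 (0.12) and Esyt3 (0.36), at 20.4 and 19.8 CPM in DMSO and 1.88 and 1.18 CPM with the compound. Cd5, the gene of a lymphocyte receptor, was nearest to Mustn1 (0.33) and second to Enpp5 (0.40), Cfap45 was second to Mustn1 (0.35), and the phosphatase gene Dusp14 second to Esyt3 (0.37). Phospho1 had no close match, with Sphk1 at 0.66 and Lif at 0.75. The 4 libraries fall into 2 groups, so this likeness rests on the level and on the difference between groups.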

How the data were processed

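Total RNA from osteoclast cultures went into 4 libraries made with an mRNA kit. Values in the deposited table are raw counts, whole numbers whose sums differ between libraries. The submitters' processing notes name Trimmomatic 0.36, HISAT2 2.0.4, DESeq2 1.30.1 and GRCm38. Which tool counted the reads, on which annotation and with which strand setting, is not given in the sources used here. Of 22036 Ensembl identifiers, 22022 matched GENCODE M21 (GRCm38), which gave symbols, positions and exon lengths. The other 1354 models carry no gene name.

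Counts were tested in edgeR 4.0.16 (R 4.3.3) after filterByExpr (minimum count 10) and TMM scaling, with glmQLFit and glmQLFTest, BMS-582949 against DMSO, no covariates and 2 residual degrees of freedom. P-values were adjusted over all 13214 genes. The fits were also run on simulated counts in which far fewer genes changed than were called here, so the scaling was not tested for these data. Replicates of neither group looked like 1 library deposited again (chi-square over its degrees of freedom 10.0 in DMSO, 14.3 with BMS-582949). Alternatives covered scaling, filters, DESeq2 1.42.0, limma-voom (limma 3.58.1), a block on replicate number and fits without each library in turn.

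The 5 genes, the 5 related and 9 marker lists and the motifs were chosen with earlier results of these data known. Named are all family members and neighbours, the 3 largest called changes per direction of each related list with a mean of at least 1 CPM, up to 2 markers per list and those without counts, and the 2 genes nearest each of the 5. Some that this takes are not described.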

Additional observations from a re-analysis of the deposited data

How the results depend on the processing

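Under the alternative scalings, filters, tests and left-out libraries, all 5 genes were at a log2 fold change of -3.32 or below. The alternative without models that share exons was run on counts of calls only, and would leave out Phospho1. With library size only the log2 fold changes were -3.32 for Slc18a1, -3.57 for Mustn1, -3.56 for Enpp5, -3.45 for Esyt3 and -4.37 for Phospho1, smaller because that scaling moved the median of all genes to 0.41. Leaving out 1 library at a time, which assumes that the lone library varies like the other group, gave -3.78 to -3.66 for Slc18a1, -4.07 to -3.85 for Mustn1, -4.22 to -3.73 for Enpp5, -4.04 to -3.66 for Esyt3 and -5.26 to -4.42 for Phospho1. Over the whole table, library size only gave 2240 genes called lower and 6738 higher, and leaving out 1 library gave 3509 to 3903 and 3615 to 3711. Related genes were then 22 lower and 31 higher with library size only, and 31 to 34 and 17 to 19 with 1 library left out. Neighbours called lower were 5 without models that share at least 10% of their exon bases, and 7 to 8 with 1 library left out. Neighbours called higher were 3 to 5, with 3 without DMSO replicate 2. Of the named genes that were called, Esyt2 (0.17), Entpd4 (0.029) and Sfmbt1 (0.11) changed sign with library size only, as did Cep70 (0.29), which was called in neither.

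Same-numbered libraries did not deviate together (r = -0.08 across 13214 genes). With 2 libraries per group the deviations within a group mirror each other, so this cannot show whether the numbers pair the samples. With the replicate number as a block, 3830 genes were called lower and 3923 higher, and Phospho1 was at -4.79. With the compound, 50 to 394 counts stand behind each value of the 5 genes, which limits how precisely the remaining level is known.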
